A study of Homo sapiens with 16 samples.

Results

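The way in which the Control DNA reached the sample was compared in 4 peak lists of AbC G4-ChIP, an immunoprecipitation of DNA quadruplexes with the 1H6 antibody in which the antibody is bound and crosslinked before the chromatin is sheared. In the lists CTtr and KDtr the cells were transfected with the Control DNA, and in CTut and KDut the DNA was mixed with antibody in a tube and joined the untransfected cells only at the lysate. Members were the genomic regions that remained after the 4 lists were merged wherever their peaks overlapped or touched. The 11179 peaks gave 4604 regions, and all 9 lists of the series merged in the same way gave 23546. Of the 4604 regions, 953 had a peak in all 4 lists, 202 had a peak in both ut lists and in no tr list, and 27 had a peak in both tr lists and in no ut list.

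All 4 samples were HEK293T cells, an established line derived from human embryonic kidney, carrying a stably integrated lentiviral shRNA. CT cells carried a non-targeting shRNA and KD cells an shRNA against CGGBP1, a nuclear protein that binds GC-rich repetitive DNA. For tr, 1.25 µg each of the Control DNA and of a carrier DNA without the quadruplex signature were given per 10 cm dish by calcium phosphate, and AbC G4-ChIP began 12 hours later. For ut, the labels give 500 ng of each DNA, folded in potassium chloride, bound by 1H6 and crosslinked before it was mixed into the lysate. The Control DNA was a pGEM-T Easy vector with an insert that repeats a unit of 4 GGG runs, and both it and the carrier were present in all 4 samples. The study's methods give for the ut mix the same amount as for transfection, so that it is not settled whether the modes also differed in dose. The effect of having Control DNA at all was not measured by these comparisons. The 4 libraries were read on the same MinION platform and each had its own input. Each library was pooled from 4 replicates before sequencing, so that a mode had 2 lists, 1 from each shRNA line, and the depth of the lists is unknown. With 2 pairs, the exact two-sided sign-flip permutation test cannot give a p below 0.5, and an exact permutation of the mode labels without the pairing cannot give one below 0.333. No difference between tr and ut could therefore pass a threshold of 0.05, whatever its size.

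A G-quadruplex (G4) is a folded DNA strand in which runs of guanines stack as planar tetrads held together by Hoogsteen bonds and a central potassium ion. The canonical signature is a strand with 4 or more GGG runs separated by loops of 1 to 7 bases, and a stretch of CCC runs carries it on the opposite strand. Telomere repeats are a classical example of such a sequence, whereas alpha satellite, the tandem repeat of human centromeres, and the ATTCC pentamer satellite hold few guanine runs. The antibody 1H6 was raised against G4 structures and is known to bind some DNA without the canonical signature.

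Windows of 150 bases are printed to show what kind of sequence stood at the top of the class of both ut lists and of the regions of all 4 lists, each being the window with the most bases in GGG or CCC runs in its region. Regions were ranked by the smallest -log10 q in the lists that held them. Capitals mark runs of at least 3 guanines or cytosines, and all windows are from the plus strand of hg38. The first windows come from the first and second regions of the class of both ut lists and no tr list. The first had 12 runs on mixed strands, and the second, from a centromeric array with the period of alpha satellite, had 3.
chr2:128371410-128371559: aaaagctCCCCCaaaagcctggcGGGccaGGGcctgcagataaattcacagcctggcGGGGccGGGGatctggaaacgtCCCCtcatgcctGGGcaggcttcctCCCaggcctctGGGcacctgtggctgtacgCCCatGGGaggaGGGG
chr1:122922540-122922689: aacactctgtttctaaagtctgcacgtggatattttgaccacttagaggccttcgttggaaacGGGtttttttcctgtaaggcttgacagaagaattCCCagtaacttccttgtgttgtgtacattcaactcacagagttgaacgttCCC
The last window comes from the first region of all 4 lists, an array of the ATTCC and GGAAT pentamer in which even the richest window had 3 runs.
chr16:46399514-46399663: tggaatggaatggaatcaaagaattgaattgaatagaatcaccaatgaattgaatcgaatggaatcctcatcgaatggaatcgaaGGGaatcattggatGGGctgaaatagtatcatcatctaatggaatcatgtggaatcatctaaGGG
The second window of the ut class was added to the planned first of each class after its values had been seen.

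At the level of whole lists, the ut samples had more and longer peaks. CTut held 3496 peaks and KDut 2927, whereas CTtr held 2367 and KDtr 2389, so that the tr count lay below the ut count in both lines. The difference, tr minus ut, was -1129 peaks in CT and -538 in KD (mean -833.5 ± 418, SD, n = 2 pairs; exact sign-flip permutation p = 0.5). The genome covered was 12215350 bp in CTut, 11308888 bp in KDut, 8745210 bp in CTtr and 7448755 bp in KDtr. The difference in covered length on the log2 scale was -0.48 in CT and -0.60 in KD, and neither tr list overlapped the range of the ut lists. The median peak length was 1958.5 bp in CTut, 1813 bp in KDut, 1652 bp in CTtr and 1643 bp in KDtr, again with no overlap between modes. Both of these differences had an exact sign-flip permutation p of 0.5 (n = 2 pairs), the smallest possible. The counts of peaks with a -log10 q of at least 4 did not follow this order, being 2349 in CTut, 1231 in KDut, 927 in CTtr and 1257 in KDtr, so that the difference was negative in CT and slightly positive in KD.

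The height of the peaks moved in opposite directions in the lines, and of the sequence measures over all peaks only GC content moved the same way in both. The median fold enrichment was 4.01 in CTut and 3.75 in CTtr, and 3.72 in KDut and 4.21 in KDtr. It was therefore lower with transfection in CT and higher in KD, and the smallest fold enrichment that entered a list was itself 3.64 in KDtr against 3.08 to 3.21 in the other lists. The median GC content was 38.5% in CTut, 38.0% in CTtr, 37.8% in KDut and 37.5% in KDtr, so that it was lower in tr by under 0.5 percentage points in each pair (exact sign-flip permutation p = 0.5, n = 2 pairs, the smallest possible). With a -log10 q of at least 4, or without chromosome 13, the lines had opposite signs for GC content too. The density of GGG and CCC triplets, which counts every position at which 3 guanines or 3 cytosines start, had a median of 11.5 per kb in CTut, 12.3 in CTtr, 13.1 in KDut and 12.3 in KDtr. The canonical signature was found in 8.78% of the CTut peaks, 11.1% of the CTtr peaks, 11.7% of the KDut peaks and 9.25% of the KDtr peaks. The sign of the difference was opposite in the 2 lines for triplets and signature (exact sign-flip permutation p = 1 for both, n = 2 pairs). Outside tandem repeats, defined in the next paragraph, both lines had the same sign, with mean differences of -0.783 triplets per kb, -1.98 percentage points for the signature and 0.302 for the median fold enrichment (exact sign-flip permutation p = 0.5 for each, n = 2 pairs). The arrangement of a unit of the Control DNA, 4 GGG runs with loops of exactly 5 bases, occurred in 1.01% to 1.13% of the peaks of each list.

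Tandem repeats were taken to be peaks in which over 36% of the bases were equal to the base lying 1 alpha-satellite unit downstream, or in which over 10% of the bases belonged to the ATTCC or GGAAT pentamer. Copies of such repeats are alike and only uniquely aligned reads were kept, so that positions and folds of peaks within them are uncertain. Such repeats made up 52.9% (95% interval 51.3% to 54.6%) of the CTut peaks, 39.5% (37.6% to 41.5%) of the CTtr peaks, 32.8% (31.1% to 34.5%) of the KDut peaks and 33.3% (31.4% to 35.2%) of the KDtr peaks. CTut was thus higher than the other 3 lists, and the tr list was lower than the ut list in CT and not in KD. This depended on the limit, since with over 50% of bases required, an alternative chosen after the data were seen, the tr share was lower in both lines (mean difference -3.87 percentage points). Peaks between genes made up 77.1% of CTut, 72.5% of CTtr, 65.0% of KDut and 66.7% of KDtr. Peaks within 1 kb of an annotated start site made up 6.92% of CTut, 7.86% of CTtr, 8.54% of KDut and 8.20% of KDtr. Chromosome 13, which is 3.77% of the assembly used, held 23.2% of the peaks of CTut and 34.4%, 37.1% and 37.1% of those of CTtr, KDut and KDtr. Without this chromosome the mean difference in peak count was -734.5 and in log2 covered length -0.76.

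Most regions were found in a single list. Of the 4604 regions, 2767 (60.1%) had a peak in 1 list, 518 in 2, 366 in 3 and 953 (20.7%) in all 4. CTut alone held 1288 regions, KDut alone 893, KDtr alone 354 and CTtr alone 232. The regions of CTut alone were tandem repeats in 61.6% of cases, whereas those of KDut alone, KDtr alone and CTtr alone were so in 1.46%, 3.67% and 8.19%. Conversely, 55.8% of the regions of KDut alone lay on chromosome 13, against 10.9% of those of CTut alone. The single-list regions were thus of a different kind in CTut than in the other 3 libraries, and this divided the libraries otherwise than by mode.

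**Figure D1:**
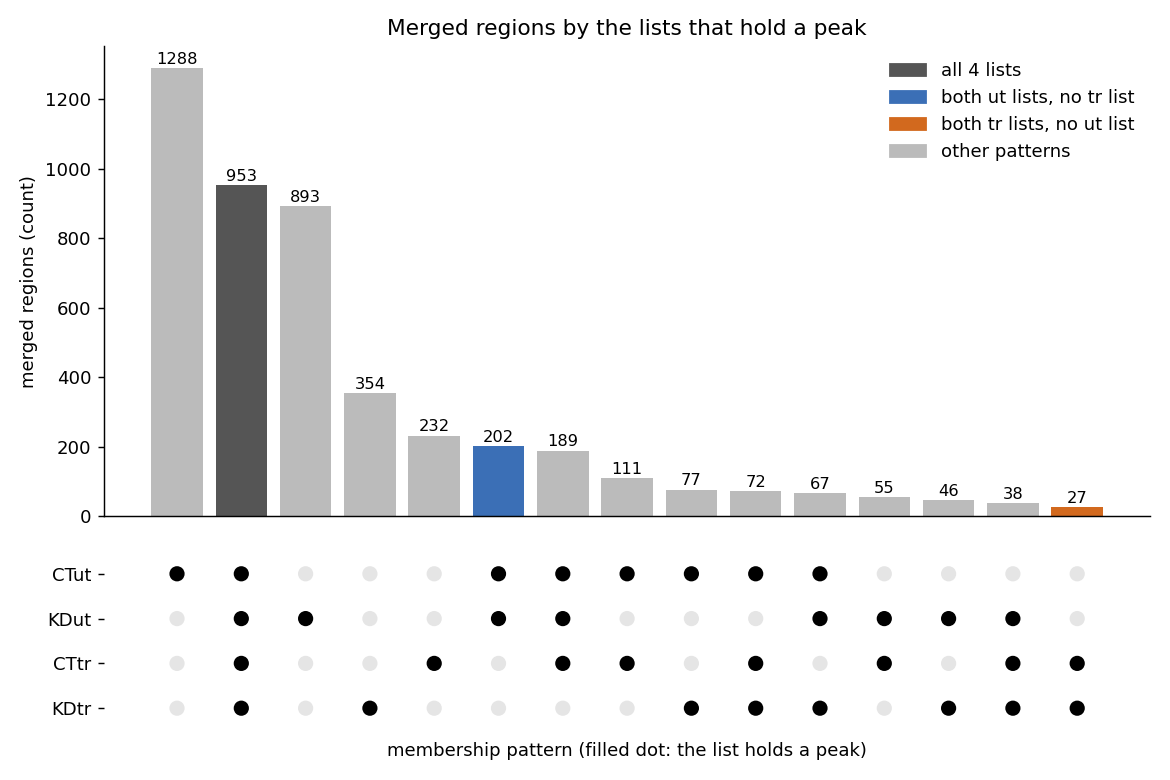
Number of merged regions (vertical axis) in each of the 15 membership patterns, with filled dots below marking the lists that held a peak. The pattern of all 4 lists (953) was the second most frequent, both ut lists without tr (202) was the sixth, and both tr lists without ut (27) was the least frequent.

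Among regions held by exactly 2 lists, 202 (4.39% of all regions) were in both ut lists and 27 (0.586%) in both tr lists. The other pairs gave 111 for both CT lists, 46 for both KD lists, 77 for CTut with KDtr and 55 for KDut with CTtr. The class of both tr lists was therefore the smallest and that of both ut lists the largest of the 6, and the ut lists also had the most peaks and the longest coverage. These are counts of regions without replicate error. Seen from the tr side, 1090 regions were held by both tr lists, and 1063 of them (97.5%, 95% interval 96.4% to 98.4%) had a peak in a ut list. Seen from the ut side, 1411 regions were held by both ut lists, and 1209 of them (85.7%, 83.7% to 87.5%) had a peak in a tr list. Almost everything found in both transfected samples was thus listed in untransfected cells too, and the reverse held less often, the tr lists being the smaller ones. High sharing was not particular to the mode. Of 1104 regions held by both KD lists only 46 (4.17%) had no CT peak, and of 1325 held by both CT lists 111 (8.38%) had no KD peak. The matching shares were 2.48% for both tr lists and 14.3% for both ut lists. Interval bounds here and below are exact Clopper-Pearson bounds for counting error only, and regions of the same list are not replicates.

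Single lists gave the same picture. Of the CTtr peaks, 88.7% overlapped a ut peak by at least 1 bp, and of the KDtr peaks 83.5% did so. Of the CTut peaks 56.5% and of the KDut peaks 61.5% overlapped a tr peak. Stronger peaks were shared more often in each list. With a -log10 q of at least 4, 96.2% of CTtr, 92.8% of KDtr, 87.1% of KDut and 60.7% of CTut peaks overlapped a list of the other mode, and below 4 the shares were 83.9%, 73.2%, 42.9% and 47.9%. CTut was the exception among strong peaks, with 760 of its 2349 peaks of that strength (32.4%) found in no other list, against 58 of 1231 (4.71%) in KDut.

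The likeness of lists did not follow the mode alone. The Jaccard index, the shared length divided by the joint length, was 0.398 for CTut with KDut and 0.484 for CTtr with KDtr. It was 0.396 for CTut with CTtr and 0.440 for KDut with KDtr, the pairs of the same line. The highest of the 6 values, 0.521, belonged to KDut with CTtr, which shared neither mode nor line, and the lowest, 0.340, to CTut with KDtr. The mean within a mode exceeded the mean within a line by 0.0230. The values within a mode, 0.398 and 0.484, lay further apart than this, as did those within a line. An SD of 0.0298 held for only one way of matching these pairs, so that it sets no limit for noise. The difference was 0.0577 with a -log10 q of at least 4, 0.0450 without chromosome 13 and 0.00465 without tandem repeats.

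The 27 regions of both tr lists and no ut list covered 45444 bp and were short, with a median length of 945 bp and a range of 637 to 4758 bp. Their fold enrichment was 3.26 to 6.51 in CTtr (median 4.27) and 3.64 to 7.85 in KDtr (median 4.46). In 13 of them both -log10 q values were at least 4, and the weakest, an intronic region of PIBF1, had 2.00 in CTtr and 2.50 in KDtr. Of the 27 regions 18 (66.7%) lay between genes, 7 in introns, 1 in an exon and 1 at a start site. Over all 4604 regions 66.8% lay between genes, 18.3% in introns, 6.21% in exons and 8.67% at start sites. In all, 7 met the definition of a tandem repeat, and 16 had a peak in at least 1 of the 5 lists that the rule did not use.

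The leading region of this class was chr3:10028-10777, the start of the short arm of chromosome 3, next to the start site of the non-coding gene LINC01986. It had a fold enrichment of 6.11 in CTtr and 7.85 in KDtr, with -log10 q of 11.1 and 17.4. Telomere hexamers made up 67.2% of its 750 bp, and it had 139 GGG or CCC triplets. The third region, chr1:9833-10469 at the start of chromosome 1, had a fold enrichment of 5.25 in CTtr and 5.82 in KDtr, and 85.7% of its known bases were hexamers. The hg38 sequence used here held 40 arrays in which hexamers made up more than 50% of a 200-base bin, and both tr lists had a peak on 3 of them, whereas both ut lists had a peak on 1. The shared array, at the end of chromosome 1, had a peak in all 4 lists, and 37 arrays had none. Of the other lists, G4-ChIP had a peak on 3 arrays, G4 DNA-IPdenat on 5, G4 DNA-IPnat on 1 and the nuc lists on 0. These lists differ much in size, so that their counts do not compare protocols. The count of arrays was made after the leading regions had been seen, and 2 arrays are too few to say that modes differ. Telomere arrays are alike and only uniquely aligned reads were kept, so that the place of a peak, or its lack, on an array is uncertain.

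The remaining leading regions of the class were chr4:51106926-51107790, with a fold enrichment of 6.51 in CTtr and 5.87 in KDtr, chr4:50187565-50188220, with 5.44 and 5.34, and chr9:64123386-64124333, with 4.98 and 6.86. None of the 3 had the canonical signature, and each had a peak in G4 DNA-IPdenat, made from purified DNA that was heat-denatured before the antibody was added. The region chr4:50187565-50188220 had the alpha-satellite period, like most leading regions of the ut class described below. Protein-coding genes were reached by 5 of the 27 regions (18.5%), against 19.2% of all 4604 regions. An intronic region of GAB1, an adaptor of receptor tyrosine kinase signalling, at chr4:143448304-143449171 had a fold enrichment of 4.61 in CTtr and 5.70 in KDtr. An intronic region of EHMT1, a histone H3 lysine methyltransferase, at chr9:137845352-137846123 had 4.46 and 4.15, with a GC content of 64.2% and 88 triplets. An exon of POLR2J2, a paralogue of an RNA polymerase II subunit gene, shared with the gene ENSG00000267645, lay in chr7:102664079-102668196, with 3.38 and 3.82. Introns of NSF, an ATPase of vesicle fusion, and of PIBF1, a centrosomal protein, held the last, with 3.36 and 3.66 in NSF and 3.26 and 3.64 in PIBF1. POLR2J2 belongs to a family of near-identical copies, so that its reads could be placed among them with uncertainty.

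The 202 regions of both ut lists and no tr list covered 580017 bp, with a median length of 2299.5 bp. Their median fold enrichment was 4.25 in CTut (range 3.08 to 9.38) and 3.78 in KDut (3.19 to 11.05). In 85 of them (42.1%) both -log10 q values were at least 4, against 48.1% of the tr class. Tandem repeats made up 127 of the 202 (62.9%, 95% interval 55.8% to 69.5%), 124 of them with the alpha-satellite period, against 41.1% of all regions. Between genes lay 161 of the 202 (79.7%), against 66.8% of all regions. Chromosome 13 held 36 of these regions (17.8%, against 26.1% of all regions), and chromosome 20 held 20 (9.90%, against 3.80%).

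The leading region of the ut class, chr2:128371309-128373119, differed from those that followed it. It lay between genes, had a GC content of 55.9%, 108 triplets and the canonical signature, and its fold enrichment was 6.35 in CTut and 11.05 in KDut, with -log10 q of 16.4 and 38.2. It also had a peak in CTnuc. The next 4 regions had the alpha-satellite period and lay on chromosomes 1, 5, 21 and 2, each with a peak in G4 DNA-IPdenat. The region chr1:122922221-122923407 had a fold enrichment of 6.65 in CTut and 5.56 in KDut, chr5:47728077-47729307 had 6.99 and 5.57, chr21:12792368-12793654 had 9.38 and 5.51, and chr2:94143179-94147718 had 5.79 and 5.43. In each of these 4 arrays the enrichment was higher in CTut than in KDut.

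The first protein-coding genes of the ut class were LIN54, a DNA-binding subunit of the DREAM complex, and THAP9, a gene derived from a transposase, which share chr4:82916843-82918907. The region had a fold enrichment of 7.46 in CTut and 5.01 in KDut, and peaks in CTnuc and KDnuc. The other genes named by the same rank were DACH1, LRRC37A2, POTEG, GPRIN2, MYCBP2, TARS3 and KLHL1, with fold enrichments of 3.18 to 3.96 in CTut and 3.42 to 4.00 in KDut, close to the smallest values that entered these lists. Of these, DACH1 encodes a transcription factor and MYCBP2 a large ubiquitin ligase. LRRC37A2 alone had a start site within 1 kb. LRRC37A2 lies in a duplicated stretch of chromosome 17, and POTEG and GPRIN2 have close copies, so that placement of their reads is uncertain.

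The 953 regions of all 4 lists covered 11320341 bp of the 18535565 bp in any list, with a median length of 4051 bp and a maximum of 485449 bp. At the level of bases, 3665144 bp (19.8%) were covered by all 4 lists, 1061327 bp (5.73%) by both ut lists and no tr list, and 241931 bp (1.31%) by both tr lists and no ut list. Tandem repeats made up 569 of the regions (59.7%, 95% interval 56.5% to 62.8%), 73 of them pentamer satellite, against 3 such pentamer regions in the ut class and 0 of 27 in the tr class. The canonical signature was found in 208 (21.8%), against 13 of 202 (6.44%) in the ut class and 3 of 27 (11.1%) in the tr class, and over all 4604 regions it was found in 9.36%. In the central 1 kb of each region, a window of equal length in every class, the shares were 4.30%, 0.495% and 7.41%. This window reached beyond regions shorter than 1 kb and was a small part of long ones.

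The region with the strongest smallest -log10 q was chr16:46396201-46402170, a pentamer array of 5970 bp between genes. Its fold enrichment was 26.8 in CTut, 21.6 in KDut, 16.1 in CTtr and 13.5 in KDtr, so that both tr values lay below both ut values, and it had a peak in each of the 5 other lists. The pentamer region chr17:21916091-21917956 had 13.7 in CTut, 11.5 in KDut, 12.4 in CTtr and 13.1 in KDtr, without such a separation. The region chr22:18895689-18897156, which is no tandem repeat, had 12.7, 12.1, 12.1 and 16.4 in the same order. The alpha-satellite regions chr1:123618019-123619427 and chr4:51711642-51712832 had 12.8, 11.7, 11.9 and 13.9, and 10.1, 20.8, 14.7 and 16.2. In all 3 of these the modes overlapped.

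The first protein-coding genes of the regions of all 4 lists, by the same rank, were ARHGEF18, PTPRN2, FRG2C, MUC3A, TMEM242, FAM120B, TEX19, GAGE2E, TSNARE1 and CCDC200. In an exon of ARHGEF18, which encodes a guanine nucleotide exchange factor, the fold enrichment was 11.4 in CTut, 10.8 in KDut, 11.0 in CTtr and 14.7 in KDtr. In an intron of PTPRN2, a receptor-type phosphatase of secretory vesicles, it was 8.30, 9.90, 10.1 and 10.5, in a region with 266 triplets in 2095 bp, and both tr values lay above both ut values. At FRG2C it was 7.18 in CTut, 8.45 in KDut, 11.4 in CTtr and 13.0 in KDtr, and in TSNARE1 it was 6.05, 7.64, 9.76 and 9.81, each with the same separation. The other named genes showed overlapping modes. At the start of the mucin gene MUC3A the values were 9.90, 10.9, 8.23 and 12.0, and at the start of TEX19, a germline gene, they were 8.26, 8.68, 7.13 and 8.68. FRG2C, MUC3A and GAGE2E belong to families of near-identical copies. A fixed list of 18 genes held genes known for a promoter G4, among them MYC, KIT, BCL2, VEGFA and TERT, and also CGGBP1 and CTCF. None of the 18 had a region of any of the 4 lists in the gene or within 1 kb of it. Of all 4604 regions, 144 (3.13%) came within 1 kb of a start site of a protein-coding gene. The share of all genes with a region was not counted.

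In the 953 regions the fold enrichment could be compared between modes within each line. The highest fold of the peaks in a region was taken for each list. The median log2 ratio of tr over ut was -0.23 in CT and 0.081 in KD, with the middle 50% of regions between -0.52 and -0.002 in CT and between -0.08 and 0.21 in KD. The mean of both medians was -0.074 ± 0.22 (SD, n = 2 pairs), so that no common shift exceeded the difference between the lines. The ratio was below 0 in both lines in 303 regions (31.8%) and above 0 in both in 192 (20.1%). A higher fold in tr was seen in 24.8% of the regions in CT and in 63.6% in KD. Because KDtr listed no peak below a fold of 3.64, low ratios of weak regions could not be seen in that pair.

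Tandem repeats and other regions differed in this ratio in both lines. In CT the median was -0.44 in tandem repeats and -0.03 elsewhere, and in KD it was 0.01 and 0.15. Relative to the other regions, the tandem repeats were thus lower by 0.41 in CT and by 0.14 in KD on the log2 scale (mean -0.28 ± 0.19, SD, n = 2 pairs; exact sign-flip permutation p = 0.5, the smallest possible). This comparison was chosen after the values had been seen. The pentamer regions had medians of -0.25 in CT and 0.11 in KD, and the regions with alpha-satellite period and no pentamer -0.46 and -0.01. Of the 303 regions lower with transfection in both lines 251 were tandem repeats, and of the 192 higher in both 151 were not. Chromosome 13, where nearly all regions lay outside tandem repeats, had medians of 0.03 in CT and 0.17 in KD, and without this chromosome the mean difference between tandem repeats and other regions was -0.23. It was -0.18 with a -log10 q of at least 4 and likewise -0.18 with tandem repeats set at a match of over 50%. Tandem repeats also had the higher fold in the lists themselves, with medians of 7.38 in CTut, 5.92 in KDut, 5.39 in CTtr and 5.95 in KDtr, against 3.85, 3.94, 3.83 and 4.41 in the other regions. The fall from CTut to CTtr was therefore seen where the fold was highest, and the value of CTut stood apart from the other 3 lists. The smallest fold that entered a list was 3.08 in CTut, 3.21 in CTtr, 3.19 in KDut and 3.64 in KDtr. The regions outside tandem repeats lay closer to these limits, which bounded their ratios more, above all in KD. The part of the limits in the contrast was not tested.

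**Figure D2:**
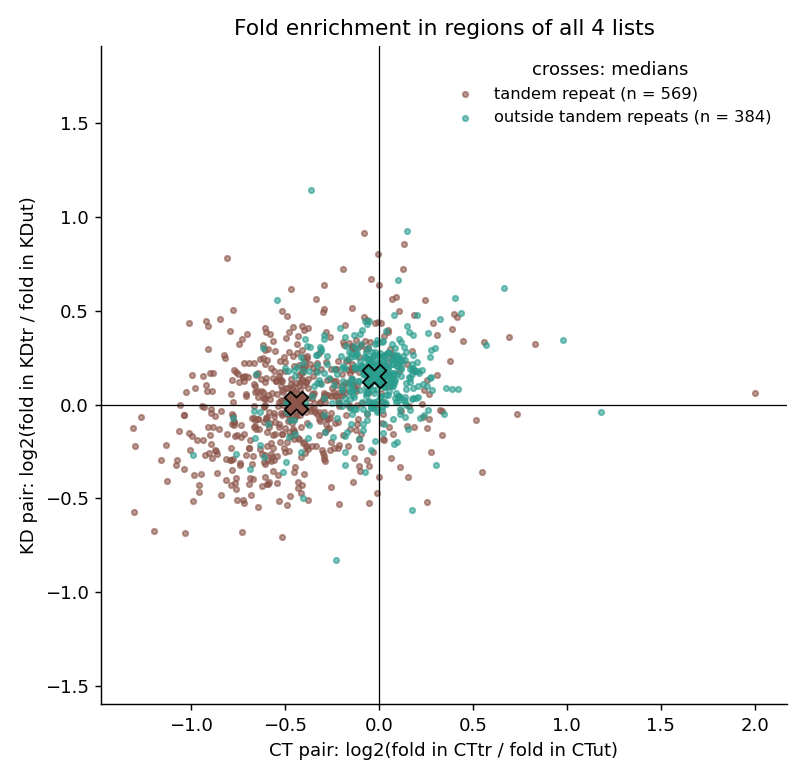
Log2 ratio of the fold enrichment in tr over that in ut for the 953 regions of all 4 lists, with the CT pair on the horizontal and the KD pair on the vertical axis, 1 point per region (brown tandem repeats, green other regions) and crosses at the medians. The cross of the 569 tandem repeats (-0.44, 0.01) lies to the left of and below that of the 384 other regions (-0.03, 0.15).

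Individual regions at the ends of this range are given as a description. The highest ratios in both lines were at FRG2C (log2 ratio 0.67 in CT and 0.62 in KD) and at chr7:56370547-56372806 between genes, with a GC content of 68.0% (0.44 and 0.49). The lowest in both were alpha-satellite regions such as chr1:123926525-123928113 (-1.03 and -0.69) and chr4:51400439-51402438 (-1.20 and -0.67), together with the pentamer array of chromosome 16 described above (-0.73 and -0.68).

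The sequences of the 3 classes were set against each other and against the genome. The median GC content was 40.0% in the tr class, 38.5% in the ut class and 38.7% in the regions of all 4 lists. The median density of GGG and CCC triplets was 17.7 per kb (middle 50% of regions 9.93 to 38.0) in the tr class, 11.1 (7.28 to 14.7) in the ut class and 10.5 (6.72 to 16.0) in all 4. The genome, taken as every 10th window of 1 kb (291133 windows), had a median GC content of 39.8% and 22 triplets per kb, and 9.34% of its windows had the signature. Over all 4604 regions the central 1 kb had a median of 12 triplets, and 3.63% had the signature, so that the captured regions as a whole were poorer in guanine runs than the genome windows. Tandem repeats accounted for 41.1% of the regions, and 40.7% of their central windows, against 2.52% of the genome windows. In the regions outside tandem repeats the central 1 kb still had a median of 16 triplets, and 5.79% had the signature, both below the genome windows.

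The tr and ut classes differed in their share of tandem repeats, which made up 7 of 27 (25.9%, 95% interval 11.1% to 46.3%) and 127 of 202 (62.9%). Outside tandem repeats the median triplet density was 21.4 per kb in 20 tr regions, 16.3 in 75 ut regions and 17.9 in 384 regions of all 4 lists. The contrast in GC content was wider there, with medians of 40.0% in the tr class and 35.5% in the ut class. The contrast did not carry over to both single pairs of lists. Regions of CTtr without a CTut peak (475) had a median GC content of 36.1% and 15.1 triplets per kb, and regions of CTut without a CTtr peak (1694) had 38.7% and 11.2. Regions of KDtr without a KDut peak (599) had 36.9% and 13.8, and the reverse (1435) had 37.1% and 14.2. The share of tandem repeats was 6.95% against 59.1% in CT, and 20.5% against 20.5% in KD. The difference between classes in repeats was thus seen in CT and not in KD, and the abundance of such repeats in CTut moved with it.

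The 5 lists that did not enter the rule gave a readout of the classes from other libraries of the same cell line and antibody. CTnuc and KDnuc were AbC G4-ChIP without any Control DNA, read on an Ion Torrent instrument. A peak of at least 1 nuc list was found in 730 of 953 regions of all 4 lists (76.6%, 95% interval 73.8% to 79.3%), in 99 of 202 ut regions (49.0%, 41.9% to 56.1%) and in 7 of 27 tr regions (25.9%, 11.1% to 46.3%). Over all 4604 regions the share was 37.4%. In the central 1 kb the shares were 58.9%, 38.1% and 25.9%, and the intervals of the tr and ut classes, which overlapped in whole regions, overlapped more widely here (11.1% to 46.3% and 31.4% to 45.2%). In single pairs the share was 30.5% for tr without ut and 36.2% for the reverse in CT, and 24.7% and 23.7% in KD, so that the order of the classes was not kept in KD.

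The immunoprecipitations from purified DNA and from sheared chromatin separated the shared regions from the others. G4-ChIP, the conventional protocol with the same antibody, had a peak in 42.8% (39.6% to 46.0%) of the regions of all 4 lists, 3.96% (1.73% to 7.65%) of the ut class and 7.41% (0.910% to 24.3%) of the tr class. G4 DNA-IPnat, from purified DNA that was not denatured, had a peak in 185 of 953 (19.4%), in 0 of 202 and in 0 of 27, which allows shares of up to 1.81% and 12.8% in the ut and tr classes. G4 DNA-IPdenat had a peak in 74.1%, 47.0% and 33.3%. Outside tandem repeats its shares were 46.6% of 384, 9.33% of 75 and 30% of 20 regions, in the same order of classes. There the ut class thus lay below the tr class. Over all 4604 regions the shares of these 3 lists, in the order given, were 11.1%, 4.13% and 36.1%. In the central 1 kb of the regions of all 4 lists they were 24.3%, 14.3% and 59.5%, lower than in these longer regions as a whole. The ut and tr classes overlapped in their intervals for each of these 3 lists. A peak in any of the 5 lists was found in 913 of 953 (95.8%), 148 of 202 (73.3%) and 16 of 27 (59.3%), against 54.1% of all regions.

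**Figure D3:**
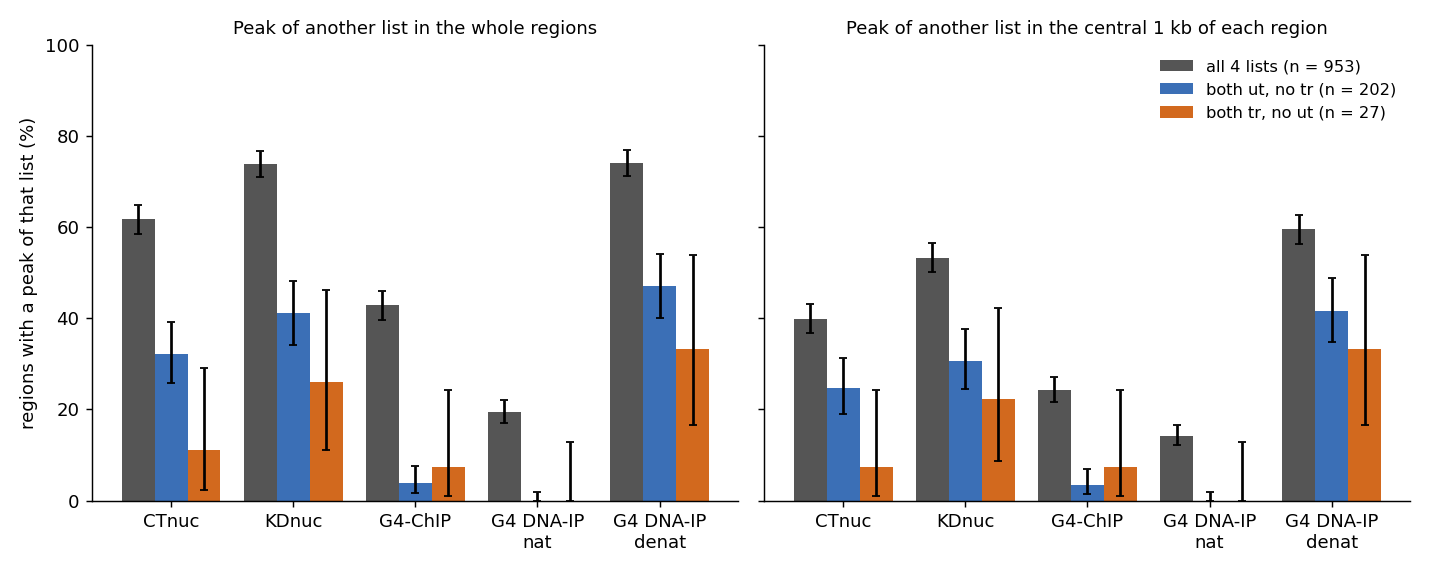
Share of regions (vertical axis, percent) with a peak of each of the 5 lists that did not enter the rule, for regions of all 4 lists (grey), of both ut lists only (blue) and of both tr lists only (orange), in whole regions (left) and in their central 1 kb (right). Bars are shares and whiskers exact 95% intervals for counting error; the grey bars are the highest for every list, and the whiskers of blue and orange overlap.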

How the data were processed

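Peak lists in hg38 coordinates were analysed. The authors aligned the MinION reads of the tr and ut samples with minimap2 to an hg38 index that lacked chromosome Y, mitochondrial and unplaced sequence and held the Control DNA, kept uniquely aligned reads and called broad peaks with MACS2 against each sample's input (bandwidth 3000, broad cutoff 0.01, no local background). Versions are not given in the sources used here. The authors deposited for every peak a fold enrichment. Since the peaks were called with no local background, it is not a ratio to the input at the site of the peak. The deposited files also hold the -log10 p and -log10 q values that MACS2 wrote. The deposited score equals 10 times -log10 q. Reads, signal tracks and inputs were not analysed here.

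Peaks were merged where they overlapped or touched (minimum 1 bp). A region's fold and q are the highest of its peaks in a list. Sequence was read from hg38 on both strands, and each region was assigned from GENCODE version 44 to promoter (within 1 kb of a start site), else exon, else intron, else intergenic. Lists were compared within shRNA pairs by an exact two-sided sign-flip permutation test, and regions were described without a test. The pairing rests on the shared cell line. With 1 list per line and mode, no correlation of replicate deviations could be computed. Named regions were the 5 with the highest smallest -log10 q in each class. Named genes were the first 10 protein-coding genes by that rank, plus a fixed list of 18 genes. That list held genes known for a promoter G4, and CGGBP1 and CTCF. Some genes and sequences that these rules select are not reported here. The members and lists were chosen with earlier results of these data known. The tandem repeat limit of 36% was set after the data were seen. Functions were tested on simulated data, and 16 of 16 checks were recovered. Python 3.11.15 was used with pandas 2.3.3, numpy 2.4.6, scipy 1.17.1 and pysam 0.24.0.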

Additional observations from a re-analysis of the deposited data

Results flagged for a closer look

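Transfection minus addition to the lysate had opposite signs in the CT and KD lines for 7 measures. Each line had 1 pair of lists, and the difference between the lines was not tested. For the median fold enrichment the difference was -0.25 in CT and 0.49 in KD, 0.740 apart. For the median log2 fold ratio in regions of all 4 lists it was -0.23 and 0.081, 0.31 apart. For the median triplet density it was 0.735 and -0.790 per kb (KD minus CT -1.52). For the share of peaks with the canonical signature it was 2.33 and -2.40 percentage points (KD minus CT -4.73). For the share in tandem repeats it was -13.4 and 0.514 points (13.9 apart). For the share between genes it was -4.63 and 1.67 points (6.31 apart), and for the share at promoters 0.936 and -0.337 points (KD minus CT -1.27). The share of tandem repeats was 52.9% in CTut and 32.8% to 39.5% in the other 3 lists, and its part in the other differences was not tested.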

How the results depend on the processing

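Averaged over the pairs, the peak count, the covered length and the median length were lower in tr under each alternative filter. The filters were a -log10 q of at least 4, outside tandem repeats and without chromosome 13. With each pair alone and no filter they were lower too. The ranges over single pairs were -1129 to -538 peaks, -0.60 to -0.48 on the log2 scale and -306.5 to -170 bp. Under the stricter q the mean difference in peak count was -698, with the KD pair not negative. Without the replicate block the exact permutation p for these 3 was 0.333, for the fold enrichment and GC content 0.667 and for the other 5 list measures 1, and no call changed, since none could be made. Over single pairs the other differences ranged from -0.25 to 0.49 for the median fold enrichment, -0.42 to -0.30 points for GC content, -0.790 to 0.735 for triplets per kb, -2.40 to 2.33 points for the signature, -13.4 to 0.514 points for tandem repeats, -4.63 to 1.67 points for peaks between genes and -0.337 to 0.936 points for promoters, so that 6 of these 7 changed sign. The mean GC difference shrank to -0.066 points with the stricter q and to -0.041 without chromosome 13, where the lines had opposite signs. The signature difference of -0.0349 points turned to 0.618 with the stricter q and to 1.04 without chromosome 13. Outside tandem repeats the difference between genes turned to 3.01 points and that at promoters to -1.25 points, while the differences in fold enrichment (0.302), triplets (-0.783 per kb) and signature (-1.98 points) were larger than over all peaks and had the same sign in both lines.

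The classes of both tr, both ut and all 4 lists had 27, 202 and 953 regions. With a -log10 q of at least 4 in every list they had 14, 196 and 592. With strong regions only they had 13, 85 and 593. Without tandem repeats the tr class had 20, the ut class 75 and the shared class 384. When peaks of the CT list of a mode were counted, with another list holding one only if it covered at least 50% of it, the tr class had 57 and the ut class 330. Classes of a single pair had 475 to 599, 1435 to 1694 and 1354 to 1564 regions. The tr class was the smallest under each of these. The median log2 fold ratio in shared regions (-0.074) turned to 0.064 without tandem repeats and ranged from -0.23 to 0.081 over single pairs. The GC difference between the tr and ut classes (1.53 points) was 4.44 without tandem repeats, 3.78 without chromosome 13 and -0.417 with peaks within 1000 bp merged. The triplet difference (6.57 per kb) was 2.68 with the stricter q, 10.7 without chromosome 13 and 2.98 with merging within 1000 bp. The Jaccard difference (0.0230) was 0.0577 with the stricter q, 0.0450 without chromosome 13 and 0.00465 without tandem repeats. It could not be computed for a single pair, which has no second list of a mode. The causes of these changes were not tested. With tandem repeats set at a match of over 50%, chosen after the data were seen, no sign changed in the 6 results run, and the ratio just given was -0.012 without such repeats. The lists hold no read counts, so that the lack of a peak in a list is not a measured absence.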
